A study of Capra hircus with 90 samples.

Results

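The retrotrapezoid nucleus (RTN) after 3 h of inhaled 6% CO2 was compared with the RTN of goats kept in room air for 24 h. Both groups were chosen by sample title, and together they make up 12 of the 90 libraries of the series, 6 in each group. All animals were adult (at least 2 years old), outbred female goats. The series sampled 3 brainstem sites, the RTN, the nucleus of the solitary tract (NTS) and the ventral respiratory column (VRC), in 5 groups of 6 goats each: 3 h, 24 h and 7 d of 6% CO2, and 24 h and 7 d of room air. Each library holds RNA of bulk tissue from a narrow punch through the frozen brainstem, here 8 to 10 mm rostral to the obex, so it mixes neurons, glia and vessels. The submitters' design names the goats kept 24 h in room air as the baseline for those exposed for 3 h. No room-air group of 3 h was analysed, so the effect of CO2 and that of the time spent in the chamber cannot be told apart.

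RTN neurons are glutamatergic cells on the ventral surface of the medulla that are excited by acid and by CO2 and that drive breathing. They lie close to blood vessels, and CO2 is a strong dilator of brain vessels. Endothelial cells, which line these vessels, respond to the flow of blood with genes that widen the vessel and keep blood from clotting, and they receive growth signals of the VEGF family from the cells around them. The RTN genes NMB and GPR4 are not linked to a row of the count table and were not analysed here, so the label of the punch was not checked against them.

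Totals ran from 20.4 M to 29.9 M counts per library after 3 h of CO2 and from 16.6 M to 26.0 M in room air. The means were 24.5 M after CO2 and 20.1 M in room air, a difference of 4.39 M (two-sided exact permutation test, p = 0.0628). All levels are given as CPM, counts scaled to a common library size, with TMM factors. Symbols come from the authors' deposited tables, which linked 238 genes, 231 of them tested here, and every symbol belongs to a gene the authors had selected in some comparison of these goats. Other genes were tested under their identifier.

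Of 15479 genes tested, 2 passed an adjusted p of 0.05 by edgeR's quasi-likelihood test (0.0129%), 1 higher and 1 lower after CO2. THBD, the endothelial thrombomodulin that binds thrombin and turns it towards an anticoagulant role, rose. THBD had 13.7, 7.19, 14.2, 13.0, 8.63 and 7.71 CPM in the 6 libraries after 3 h of CO2, against 2.02, 4.17, 5.22, 3.94, 2.17 and 0.484 CPM in room air. The groups do not overlap, and libraries 1, 3 and 4 of the CO2 group are the highest. The log2 change was 1.81 (SE 0.29, edgeR adjusted p = 0.0250). In bulk tissue more cells of a type and more RNA per cell cannot be told apart. The second gene has no symbol. ENSCHIG00000022219 fell by 2.09 on the log2 scale (SE 0.33, edgeR adjusted p = 0.0250), with 1.04 to 2.92 CPM after CO2 (median 2.33), against 4.86 to 15.1 CPM in room air (median 8.31). Its groups do not overlap either. Between 24 h and 3 h of CO2 it differed by 1.45 (edgeR adjusted p = 0.335). Further genes without a symbol whose groups do not overlap are ENSCHIG00000025552, with a mean of 18 CPM after CO2 and 9.51 CPM in room air, ENSCHIG00000018367, with 28.5 and 19.5 CPM in CO2 and in room air, and ENSCHIG00000021822, with 0.609 and 1.85 CPM in CO2 and in room air (edgeR adjusted p = 0.321 each).

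Both calls are sensitive to single libraries. Without library 4 of the CO2 group, which has an extreme level of the choroid plexus gene TTR, neither passed: THBD differed by 1.75 (edgeR adjusted p = 0.0990) and ENSCHIG00000022219 by -2.20 (adjusted p = 0.0931). THBD passed in 4 of the 12 fits that each leave out 1 library, those without room-air library 3 or 6 or CO2 library 2 or 6. ENSCHIG00000022219 passed in 3 of the 12, those without room-air library 1, 5 or 6, and the log2 changes ran from 1.62 to 2.06 for THBD and from -2.24 to -1.90 for ENSCHIG00000022219.

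**Figure D1:**
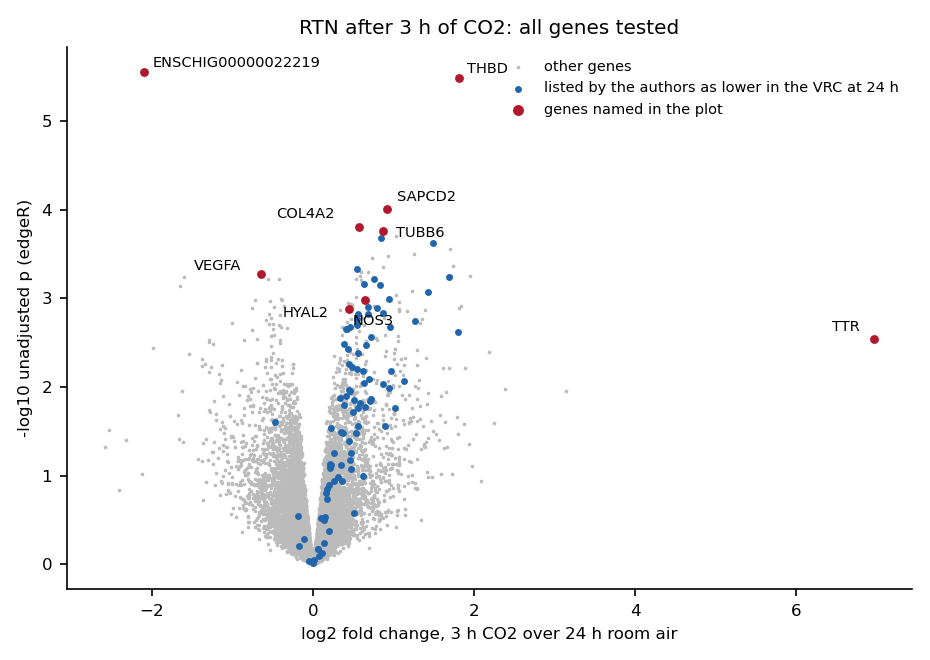
Each point is 1 of 15479 genes in the RTN, with the log2 fold change of 3 h CO2 over room air on the x axis and the -log10 unadjusted p of edgeR on the y axis. THBD and ENSCHIG00000022219 stand above the rest, TTR lies far to the right at a log2 change of 6.96 with 1 library behind it, and the blue points, genes the authors list as lower in the VRC at 24 h, lie mostly on the right.

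An unadjusted p under 0.05 was reached by 1071 genes (6.92%), of which 603 were higher (3.9%) and 468 lower (3.02%) after CO2, where a share of 0.05 of the genes would be 774. The count depended on single libraries. Over the fits that each leave out 1 library it ran from 721 without CO2 library 5 to 1465 without CO2 library 2. The 721 (431 higher and 290 lower) lie below the 778 that this share gives in that fit. The count was 814 and 848 without CO2 libraries 6 and 4, and 1446 without CO2 library 3. The median log2 difference was 0.52 among the 603 and -0.40 among the 468, and 104 and 49 of them exceeded 1 in size. The 2 groups of 6 libraries did not overlap for 21 genes that were higher after CO2 (0.136%) and 22 that were lower (0.142%). Of the 231 tested genes with a symbol, 4 are among these 43: THBD, NOS3 and HYAL2, which were higher, and VEGFA, which was lower. DESeq2 called 17 genes on the same libraries, 16 higher and 1 lower, including THBD and ENSCHIG00000022219. It also called ANKRD9, SAPCD2, TUBB6, DACT3, COL4A2, EIF3B and CTBP1, all higher, and the other 8 have no symbol. limma voom with quality weights called 0, with 1631 genes at an unadjusted p under 0.05.

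Among the linked genes of the vessel wall, only THBD passed the test. Of a list of 11 shear-responsive and anticoagulant endothelial genes, 6 were linked: THBD, NOS3, HYAL2, TUBB6, RHBDF1 and ACVRL1. Of these, THBD, NOS3 and ACVRL1 are also among the fixed endothelial markers counted below, and HYAL2, TUBB6 and RHBDF1 are not. All 6 carry a symbol because the authors list them as higher at 3 h in the NTS, another site of these goats. The list was also chosen with earlier results of these data known, so neither their direction nor their p here is independent evidence. In the RTN, 6 of 6 had a positive log2 difference with a median of 0.55, beside -0.00 over all genes. Of the 6, 1 passed over all genes (THBD) and 5 had an unadjusted p under 0.05 in the upward direction, beside 3.9% of all genes and 67 of the 231 tested genes with a symbol, of which 68.8% had a positive difference. NOS3, the endothelial nitric oxide synthase that makes a dilator of vessels, had 28.5, 20.2, 23.6, 24.4, 27.6 and 24.0 CPM after CO2, against 14.7, 17.2, 17.0, 14.7, 19.4 and 11 CPM in room air. Its lowest library after CO2 lies just above the highest in room air. The log2 difference of NOS3 was 0.65 (SE 0.17, edgeR adjusted p = 0.346), and it was 0.66 without library 4.

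HYAL2, a membrane-anchored hyaluronidase that trims the sugar coat of cells, had 16.6, 15.0, 18.7, 16.7, 16.9 and 15.3 CPM after CO2, against 12.1, 13.2, 14.7, 12.4, 11.6 and 8.16 CPM in room air. These groups do not overlap, and the CO2 libraries span a narrow range. The log2 difference of HYAL2 was 0.45 (SE 0.12, edgeR adjusted p = 0.346). TUBB6, a beta-tubulin of microtubules, had 56.3, 27.8, 46.3, 46.0, 38.5 and 30.3 CPM after CO2, against 18.5, 28.0, 29.8, 14, 26.6 and 16.7 CPM in room air. Here libraries 2 and 6 of the CO2 group lie close to the highest room-air libraries. TUBB6 differed by 0.87 (SE 0.19, edgeR adjusted p = 0.321). RHBDF1, an inactive rhomboid that helps the sheddase ADAM17 mature, averaged 20.3 ± 2.43 CPM after CO2 and 15.8 ± 2.60 CPM in room air (SD, n = 6 each; log2 difference 0.36, edgeR adjusted p = 0.640). ACVRL1, a receptor for bone morphogenetic proteins on endothelial cells, averaged 14.3 ± 3.9 CPM after CO2 and 10.5 ± 2.54 CPM in room air (SD, n = 6 each; log2 difference 0.43, adjusted p = 0.750).

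**Figure D2:**
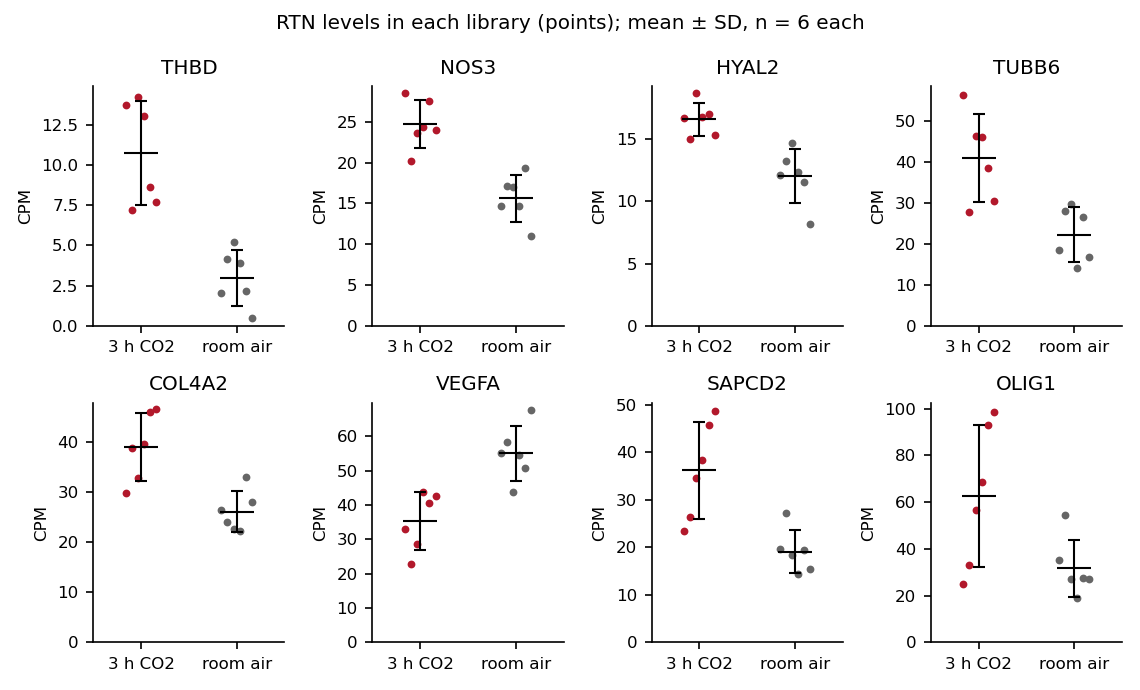
CPM on the y axis of each panel for 8 genes in the RTN, with 1 point per library, 3 h CO2 on the left and room air on the right, and the mean ± SD (n = 6 each). THBD, NOS3, HYAL2 and VEGFA show no overlap between the groups, whereas TUBB6, COL4A2, SAPCD2 and OLIG1 overlap.

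Of the vessel growth factors and their receptors, 3 of 11 were linked, all of them ligands, and 2 had a higher and 1 a lower mean after CO2. VEGFA, the main driver of vessel growth and permeability, had 33, 22.9, 28.7, 43.8, 40.5 and 42.7 CPM after CO2, against 55.2, 58.4, 43.8, 54.5, 50.9 and 67.6 CPM in room air. All CO2 libraries are below all room-air libraries, but the highest of the first, at 43.79 CPM, and the lowest of the second, at 43.82 CPM, almost touch. The log2 difference of VEGFA was -0.65 (SE 0.16, edgeR adjusted p = 0.321) and was -0.72 without library 4. VEGFB, a ligand of the receptor FLT1, averaged 24.5 ± 3.49 CPM after CO2 and 18.4 ± 2.14 CPM in room air (SD, n = 6 each; log2 difference 0.41, SE 0.12, edgeR adjusted p = 0.373). VEGFC, a growth factor of lymph vessels, averaged 8.38 ± 2.55 CPM after CO2 and 5.42 ± 2.14 CPM in room air (SD, n = 6 each; log2 difference 0.63, adjusted p = 0.606). Without library 4 that of VEGFC was 0.45. EGLN1, an oxygen-sensing hydroxylase that targets hypoxia-inducible factors for destruction, averaged 67.2 ± 16.2 CPM after CO2 and 49.5 ± 6.22 CPM in room air (SD, n = 6 each; log2 difference 0.44, adjusted p = 0.466).

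COL4A2, a chain of the collagen of basement membranes, averaged 38.9 ± 6.73 CPM after CO2 and 26.0 ± 4.05 CPM in room air (SD, n = 6 each; log2 difference 0.57, SE 0.13, edgeR adjusted p = 0.321). FOXQ1, a forkhead factor of brain endothelium, lay between 0.225 and 1.49 CPM after CO2, against 0.194 to 0.604 CPM in room air. Its log2 difference of 1.69 (adjusted p = 0.321) is of a gene near 1 CPM. Of the 4 linked brain vessel identity genes, 3 had a positive and 1 a negative difference, and 1, FOXQ1, had an unadjusted p under 0.05. ACKR1, a chemokine receptor of venules, differed by 0.60, APCDD1, a Wnt inhibitor of brain vessels, by 0.46, and MEOX2, a homeobox factor of vessels, by -0.69. The linked endothelial markers other than THBD (NOS3, ACVRL1 and FOXQ1, 3 of 7 fixed markers) summed to 29.6 to 50.1 CPM after CO2 and to 18.1 to 31.6 CPM in room air, and none of the 3 was at 0 in a library of either group. NOS3 and ACVRL1 carry a symbol because the authors list them as higher at 3 h in the NTS, so this sum is not an independent measure of vessel content. The markers PECAM1, CDH5 and CLDN5 were not linked. The part of vessel content in these results was not tested. COL4A2, FOXQ1, APCDD1, VEGFB and EGLN1 are also in the authors' list of genes lower in the VRC at 24 h, and for each of the 5 the highest 3 of the CO2 libraries were libraries 4, 5 and 6. FOXQ1 had 18, 5, 17, 38, 39 and 32 counts in CO2 libraries 1 to 6, against 5, 6, 9, 4, 4 and 10 counts in room air.

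Of the 9 genes that the authors' deposited NTS table for 3 h gives as higher, 7 were tested in the RTN. All 7 had a positive log2 difference, 6 at an unadjusted p under 0.05 against 3.9% of all genes, and the median was 0.63. Of these 7, 6 are the genes of the shear-responsive and anticoagulant list above, and the other is VEGFC. These are other punches of the same goats, so the values are not from independent animals. Both genes given there as lower, VEGFA and ACER2, were lower in the RTN as well. ACER2, a ceramidase of the Golgi, averaged 8.14 ± 1.55 CPM after CO2 and 11.9 ± 2.06 CPM in room air (SD, n = 6 each; log2 difference -0.55, edgeR adjusted p = 0.368). The upward count was 5 to 7 of 7 in the 12 fits that leave out 1 library. For the VRC at 3 h the authors list 8 genes as higher, of which 5 were tested in the RTN. All 5 had a positive difference, against 49.1% of all genes, and 3 had an unadjusted p under 0.05, against 3.9%. These 3 are THBD, HYAL2 and TUBB6, already counted among the 7 above. Of the 4 listed as lower in the VRC, 3 had a negative difference in the RTN, among them VEGFA, which is also in the NTS list. The exception was VEGFB, with a log2 difference of 0.41 in the RTN and -0.89 in the VRC (edgeR adjusted p = 0.373 and 0.0140). EGLN1, which is in neither 3 h list, differed by 0.44 in the RTN and by -0.82 in the VRC (adjusted p = 0.466 and 0.0140). In the NTS the log2 differences of VEGFB and EGLN1 were 0.14 and 0.20. A call at 1 site and not at another does not show that the sites differ, and the RTN was not tested against the VRC alone.

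A direct test of whether the 3 h effect in the RTN differed from the mean effect in the NTS and the VRC called 0 of 16339 genes by edgeR (0%), and 0 by DESeq2. An unadjusted p under 0.05 was reached by 513 genes (3.14%), where a share of 0.05 of the genes would be 817. This fit took the punches of a goat as independent. With goat as a block, edgeR again called 0, with 804 genes at an unadjusted p under 0.05 and a lowest adjusted p of 0.0703. The differences and intervals that follow are of the fit without that block. For THBD the RTN effect lay above that mean by a log2 difference of 0.12 (95% interval -0.77 to 1.01), and for VEGFA by 0.10 (-0.30 to 0.49). For NOS3 it lay below by -0.18 (-0.71 to 0.35) and for HYAL2 by -0.41 (-0.79 to -0.02; adjusted p = 1.00). These intervals also hold effects of unequal size. ENSCHIG00000022219 was lower after 3 h at the other sites too, with log2 differences of -1.13 in the NTS and -1.58 in the VRC (edgeR adjusted p = 0.689 and 0.0891). Among genes with a symbol the lowest p for a more positive effect in the RTN than at the other sites belonged to NR1D2, a clock repressor of the nuclear receptor family, RNF157, a ubiquitin ligase, and EGLN1, with differences of 0.85, 0.83 and 0.76 (adjusted p = 1.00 each). In the other direction it belonged to GPR179, HYAL2 and CD1D, and GPR179 had at most 0.0899 CPM after CO2 and 0.442 CPM in room air in the RTN.

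**Figure D3:**
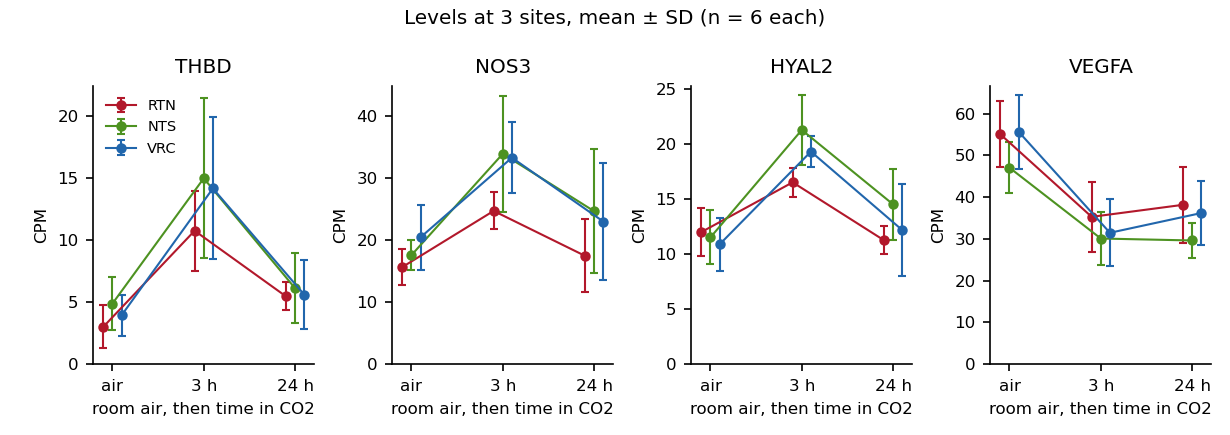
CPM (mean ± SD, n = 6 each) of THBD, NOS3, HYAL2 and VEGFA on the y axis, with room air, 3 h and 24 h of CO2 on the x axis, for the RTN, NTS and VRC. THBD, NOS3 and HYAL2 have their highest mean at 3 h at each site, and VEGFA in the RTN is at 55.1 CPM in room air and at 35.3 and 38.2 CPM after 3 h and 24 h.

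The means of THBD, NOS3 and HYAL2 in the RTN were lower after 24 h of CO2 than after 3 h, that of VEGFA was not, and none of these differences passed an adjusted p of 0.05 by edgeR. This comparison leaves the room-air libraries out but uses the 3 h libraries again. THBD averaged 3.00 ± 1.74 CPM in room air, 10.8 ± 3.24 CPM after 3 h and 5.46 ± 1.13 CPM after 24 h (SD, n = 6 each). From 3 h to 24 h THBD differed by -0.96 (SE 0.27, edgeR adjusted p = 0.411). HYAL2 averaged 12 ± 2.18, 16.5 ± 1.33 and 11.3 ± 1.27 CPM at the same points, and the step from 3 h to 24 h was -0.55 (SE 0.12, adjusted p = 0.213). NOS3 averaged 15.7 ± 2.88, 24.7 ± 2.98 and 17.5 ± 5.87 CPM. VEGFA averaged 55.1 ± 7.93, 35.3 ± 8.44 and 38.2 ± 9.07 CPM, and its step from 3 h to 24 h was 0.12 (95% interval -0.21 to 0.45). Of the 7 genes listed as higher in the NTS at 3 h, 6 were lower at 24 h than at 3 h in the RTN at an unadjusted p under 0.05, against 4.52% of all genes, and none was higher. These 7 were listed for high levels in other punches of the same 3 h goats, which favours a lower level at 24 h, so this count is not independent evidence. Of all genes, 49.6% had a lower fitted level at 24 h than at 3 h. No gene passed 0.05 between 24 h and 3 h by edgeR (0 of 15479, 0%), although 1390 had an unadjusted p under 0.05 (8.98%; 4.46% higher at 24 h), while DESeq2 called 25, among them HYAL2. The NADPH oxidase subunit NCF4 averaged 4.69, 3.35 and 6.83 CPM in room air, after 3 h and after 24 h, and had a log2 difference of 1.05 between 24 h and 3 h (edgeR adjusted p = 0.321). FAM234A and PLOD1, a lysyl hydroxylase of collagen, were also higher at 24 h, by 0.55 and 0.72 (adjusted p = 0.126 and 0.394).

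The room-air baseline of the RTN is itself at one end of the series for several of these genes. Its means of THBD, NOS3 and TUBB6 were the lowest of all 15 groups, and its mean of VEGFA was the second highest. The RTN of goats kept 7 d in room air, which belong to another batch of extraction and sequencing, averaged 5.50 ± 1.70 CPM of THBD, 18.1 ± 2.96 CPM of NOS3 and 41.8 ± 5.91 CPM of VEGFA (SD, n = 6). In the RTN after 3 h the lowest THBD library, at 7.19 CPM, lies within the range of the 7 d room-air libraries, 2.99 to 7.49 CPM. The mean of ENSCHIG00000022219 after 3 h was the lowest of the 15 groups, at 2.22 CPM.

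Of the 95 genes that the authors' deposited VRC table for 24 h gives as lower, 94 were tested in the RTN at 3 h. Of these, 87 had a positive log2 difference, where 49.1% of all genes did, 59 reached an unadjusted p under 0.05 upwards against 3.9% of all genes, and 2 did so downwards. The median was 0.47. The VRC and RTN libraries in room air come from the same 6 goats but from separate punches. None of the 94 passed an adjusted p of 0.05 by edgeR in the RTN. Without library 4 the median was 0.46 and 56 of 94 were higher at an unadjusted p under 0.05. The shift is not particular to 3 h. After 24 h of CO2, against the same room-air libraries of the RTN, the median was 0.46. There, 49 of the 94 were higher at an unadjusted p under 0.05 by edgeR, beside 578 of all 15479 genes. Both medians rest on the same room-air libraries, so they are not independent. Between 24 h and 3 h of CO2, without room air, the median of the 94 was -0.06, with 0 higher and 3 lower at an unadjusted p under 0.05.

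Of the 12 genes with a symbol and the lowest p among those higher after CO2, 10 are in this list, all but THBD and TUBB6. Of the 231 tested genes with a symbol, 67 were higher at an unadjusted p under 0.05 by edgeR. Most of these 67 are in this list too, so its large share is not particular to the 12. The list, with 94 tested genes of which some have no symbol, also supplies a large part of the 231. SAPCD2, a regulator of spindle orientation, had 23.3, 26.3, 34.6, 38.4, 45.7 and 48.7 CPM after CO2, against 19.7, 27.2, 18.5, 14.3, 19.5 and 15.5 CPM in room air (log2 difference 0.92, SE 0.19, edgeR adjusted p = 0.321). Libraries 4, 5 and 6 of the CO2 group are the highest. DACT3, an inhibitor of Wnt signalling, differed by 0.85, ANKRD9, a substrate receptor of a ubiquitin ligase, by 1.49, and ADAP1, an ArfGAP, by 0.55 (adjusted p = 0.321 each). EIF3B, a subunit of a translation initiation factor, differed by 0.75, CTBP1, a corepressor of transcription, by 0.83, RNF157 by 0.64 and the zinc finger gene ZNF853 by 1.43. After 3 h these genes, SAPCD2 to ZNF853, had positive log2 differences in the NTS too, from 0.25 (RNF157) to 1.39 (ZNF853). In the VRC all were negative, from -0.56 (ADAP1) to -1.28 (ZNF853), but the authors' list rests on the same VRC room-air libraries. None passed an adjusted p of 0.05 by edgeR at either site. The oligodendrocyte factors OLIG1 and OLIG2 averaged 62.6 ± 30.2 and 18.2 ± 7.58 CPM after CO2, against 31.8 ± 12.2 and 9.48 ± 3.00 CPM in room air (SD, n = 6 each), with log2 differences of 0.97 and 0.95 (adjusted p = 0.527 and 0.346). OLIG1 ran from 25.1 to 98.7 CPM within the CO2 group. NR1D2 averaged 42.5 ± 11.1 CPM after CO2 and 28.7 ± 3.29 CPM in room air (SD, n = 6 each; log2 difference 0.56, adjusted p = 0.348).

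These 94 genes moved with certain libraries. Relative to the room-air mean, their median log2 level was -0.02, 0.16, 0.37, 0.64, 0.86 and 0.74 in libraries 1 to 6 of the CO2 group, against 0.07, 0.23, -0.06, -0.22, -0.06 and 0.02 in those of room air. Libraries 4, 5 and 6 are far above the room-air range, library 3 is above it, and libraries 1 and 2 are inside it. Libraries 4 and 5 are also the deepest of the 12, with 27.7 M and 29.9 M counts, but library 6 has 22.3 M. Without libraries 4 and 5, an omission decided on with the values known, 31 of 94 genes were higher at an unadjusted p under 0.05 with a median of 0.34, against 2.07% of all genes. The motor neuron gene PRPH also varied between the punches, from 28.0 to 958 CPM after CO2 and from 41.6 to 697 CPM in room air, and it was high in CO2 libraries 2, 4, 5 and 6 and in room-air libraries 1, 5 and 6. The part of depth or of punch content in the result was not tested. The 7 genes listed for the NTS at 3 h showed another order: their median log2 level was 0.72, 0.39, 0.61, 0.66, 0.83 and 0.44 in CO2 libraries 1 to 6.

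**Figure D4:**
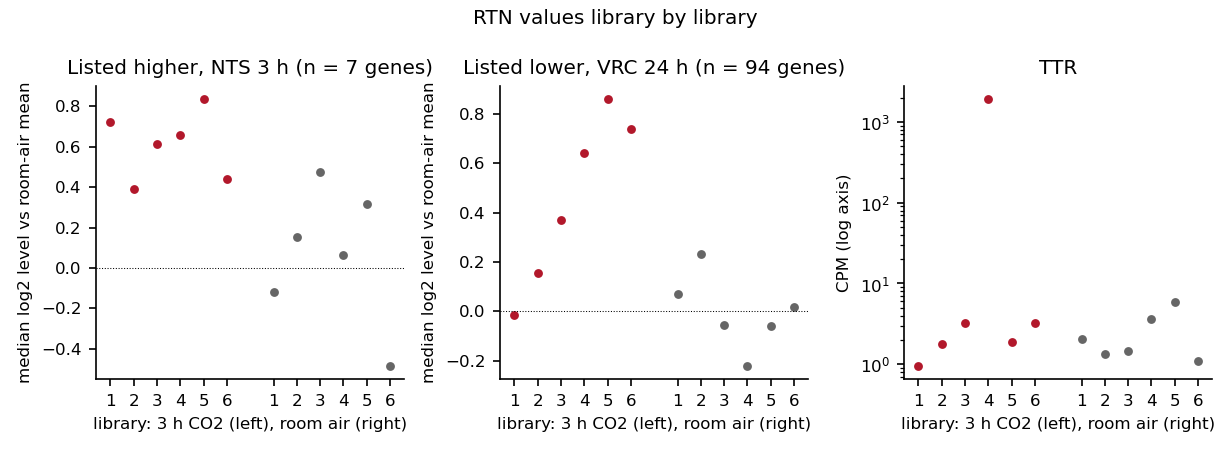
The first 2 panels give, for each RTN library on the x axis, the median log2 level of 7 genes listed by the authors as higher in the NTS at 3 h and of 94 genes listed as lower in the VRC at 24 h, relative to the room-air mean, and the third gives TTR in CPM on a log axis. In the second panel CO2 libraries 4, 5 and 6 are highest and libraries 1 and 2 are within the room-air range, and in the third library 4 stands alone at 1905 CPM.

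Genes listed by the authors for the NTS at 24 h did not stand out. Of the 155 given as lower there, 151 were tested, and 84 had a positive and 67 a negative log2 difference, with a median of 0.01. At an unadjusted p under 0.05, 0 were higher and 3 lower. They include ribosomal and respiratory chain genes. The 7 linked ribosomal protein genes of the fixed list differed by -0.02 to 0.10, and the 8 linked genes of oxidative phosphorylation by -0.05 to 0.11. RPS28, of the small ribosomal subunit, averaged 86.5 ± 29.6 CPM after CO2 and 81.4 ± 20.9 CPM in room air (SD, n = 6 each). NDUFA2, a complex I subunit, had a mean of 226.2 ± 33.5 CPM after CO2 and 233.0 ± 33.7 CPM in room air (SD, n = 6 each). Of the 25 genes listed as higher in the NTS at 24 h, 22 were tested, with a median of -0.05, and 0 had an unadjusted p under 0.05.

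**Figure D5:**
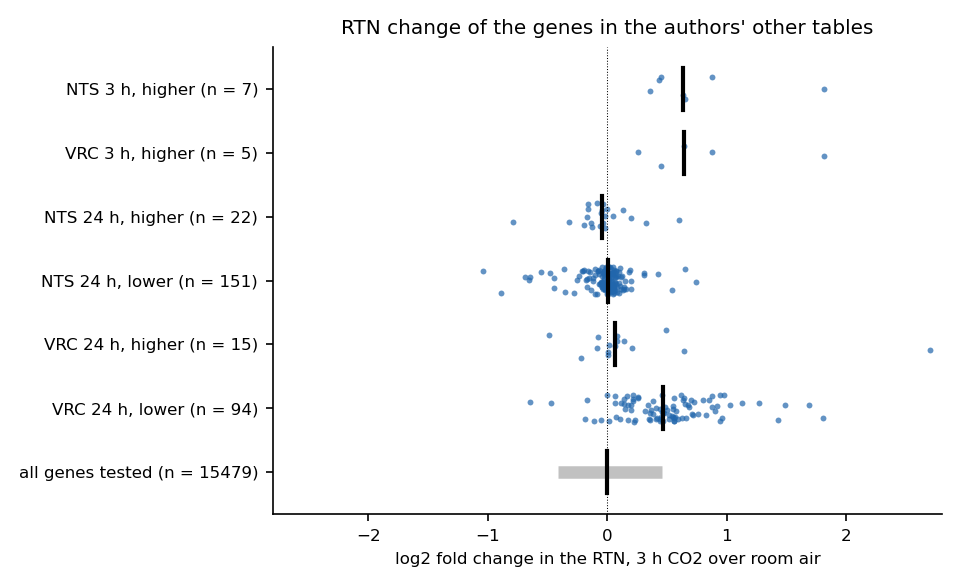
Log2 fold changes in the RTN, 3 h CO2 over room air, on the x axis for genes that the authors list in other comparisons, 1 point per gene with TTR drawn at the right edge, the median as a black line, and for all 15479 genes the grey bar over the central range of the genes, from percentile 5 to 95. The 94 genes listed as lower in the VRC at 24 h have a median of 0.47 and the 151 listed as lower in the NTS at 24 h one of 0.01.

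Among the genes that were lower after CO2, few have a symbol. Beside VEGFA and ACER2, 3 more of the 12 that the naming rule gives had an unadjusted p under 0.05. AIF1, a calcium-binding protein of microglia, averaged 59.1 ± 14.2 CPM after CO2 and 75.9 ± 9.55 CPM in room air (SD, n = 6 each; log2 difference -0.37, edgeR adjusted p = 0.579). Of 9 listed microglial and myeloid genes, 3 were linked. All 3 had a negative difference, as did 50.9% of all genes, and of the 3 only AIF1 had an unadjusted p under 0.05. The difference was -0.48 for NCF4 and -0.33 for CD14, a receptor for bacterial lipopolysaccharide. The summed level of the 3 was 56.9 to 93.0 CPM after CO2 and 67.4 to 102.2 CPM in room air, so the groups overlap. DTX1, a ubiquitin ligase of the Notch pathway, differed by -0.47 (adjusted p = 0.650). OVN differed by -2.58 (adjusted p = 0.718), with 1 room-air library at 25.4 CPM. The others, MAN2B1, MSI2, WFDC2, NCF4, MEOX2, NPFF and APOC2, had log2 differences from -1.04 to -0.21. The erythroid genes HBQ1 and HEMGN differed by 0.07 and -0.79, and neither passed an adjusted p of 0.05. Of the 3 linked p53 targets, ACER2 is given above, and PPM1D, which ends DNA damage signalling as a phosphatase, and PHLDA3, an inhibitor of AKT signalling, differed by 0.47 and 0.90 (edgeR adjusted p = 0.736 and 0.669).

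TTR, the thyroid hormone carrier made by the choroid plexus, has the largest log2 difference of all genes tested, and 1 library sets it. TTR had 23, 40, 66, 50940, 53 and 70 counts in CO2 libraries 1 to 6, against 53, 23, 33, 72, 105 and 18 counts in room air. Library 4 thus held 1905 CPM, and the next highest of all 90 libraries, of the VRC after 24 h of CO2, held 162.8 CPM. Other punches of the same goat had 9.999 CPM in the NTS and 34.2 CPM in the VRC. With all libraries TTR had a log2 difference of 6.96 (SE 1.96, edgeR adjusted p = 0.420). Without library 4 it was -0.23 (SE 0.40, adjusted p = 0.989), with 2.23 ± 0.99 CPM in the other 5 CO2 libraries and 2.56 ± 1.84 CPM in room air (SD, n = 5 and 6). The authors' deposited table for the RTN at 3 h lists THBD and TTR, both higher, with log2 changes of 1.83 and 6.95 and an adjusted p of 0.00134 each. Only 1 other gene in library 4, ENSCHIG00000016916, was at least 10 times above every other of the 12 libraries at 1 CPM or more, with 14.3 CPM against at most 1.22 CPM, and no other library had such a gene. TTR is the only linked gene of the 7 choroid plexus and ependymal markers.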

How the data were processed

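Per the labels' protocols, cDNA came from the SMART-Seq v4 kit, libraries from Nextera XT, and reads were pairs of 100 bp; neither kit marks strand. Among the tools in the submitters' processing notes are STAR 2.7.10b, fastp 0.24.0, edgeR 4.6 and featureCounts 2.0.6. No genome build is named in these sources, and coordinates are not used here. The authors deposited raw read counts per gene for 90 libraries (0 columns were left out) and tables of log2 fold changes, log2 mean abundance, a likelihood ratio score and p-values, per the file headers. Equal log2 mean abundance in a refit of 17730 genes tied each of 342 deposited entries to 1 gene and linked 238 symbols.

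The tests ran on these counts in edgeR 4.0.16 under R 4.3.3 (TMM, filterByExpr with a minimum count of 10, glmQLFit with legacy=FALSE and robust=TRUE, Benjamini-Hochberg adjustment, threshold 0.05) on the 18 RTN libraries of the first batch. The comparison between sites used the 54 libraries of that batch. DESeq2 1.42.0 and limma 3.58.1 served as alternatives. CPM were computed over 90 libraries. The number of a library marks its goat within an exposure group: same-numbered punches of the RTN and another site had a median residual correlation of 0.221 (36 pairs), against -0.0388 for other numbers (180 pairs).

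The text names every gene past 0.05, TTR, the genes of the deposited 3 h tables and the 12 genes with a symbol of lowest p in each direction at 1 CPM or more. It also names members of the gene lists, up to 2 identifiers a direction, and for the other comparisons the 3 symbols of lowest p in each direction. ENSCHIG00000016916 was chosen after its values were seen. The groups, lists and rules were chosen with earlier results of these data known. ABCC11, GPR179 and MFAP5 were below the filter in the RTN.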

Additional observations from a re-analysis of the deposited data

Results flagged for a closer look

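In 7 of 78 groups of 6 libraries, 1 library lay apart from the other 5 by Dixon's test, which flags about 1 group in 20 by chance. TTR was at 1900 CPM in CO2 library 4, against 0.957 to 3.25 CPM in the other CO2 libraries. RHBDD3 was at 34.8 CPM in CO2 library 2, against 27.6 to 30.1 CPM in the others. The remaining 5 are single room-air libraries: EIF3B at 94.9 CPM in library 2 (others 69.5 to 78.3), AIF1 at 56.9 CPM in library 5 (77.8 to 83.9), MSI2 at 59.6 CPM in library 1 (71.4 to 74.0), and in library 6 OVN at 25.4 CPM (0.15 to 8.40) and APOC2 at 64.3 CPM (19.2 to 34.1).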

How the results depend on the processing

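For the 3 h effect in the RTN, the 2 calls became 17 with DESeq2, 1 with the legacy dispersion and 0 with limma voom (1631 genes at an unadjusted p under 0.05), with 12 libraries (1037) and with the 54 libraries of the first batch (1043). Leaving out 1 library gave 0 to 2 calls, and leaving out CO2 libraries 4 and 5 together, chosen after the data were seen, gave 0 (550). Other factors or filters gave 2 calls, and the 90-library likelihood ratio fit also gave 2, THBD and TTR, without ENSCHIG00000022219 (adjusted p = 0.117). For 24 h against 3 h, DESeq2 called 25 genes. The log2 difference of TTR ran from -0.23 to 7.35 over the fits without 1 library, reversed to -0.23 without CO2 library 4 and to -0.16 without libraries 4 and 5, and RHBDD3 to 0.0044 without both. With the replicate number as a block there were 2 calls at 3 h and 0 for 24 h against 3 h. Same-numbered CO2 and room-air libraries had a median residual correlation of 0.0471 (-0.104 to 0.323), and 2 of 6 pairs exceeded 0.1. The groups are of different goats by design, and whether libraries of the same number share another factor was not tested. With goat as a block, the comparison between sites gave 0 calls (804 at an unadjusted p under 0.05).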
